A study of Rattus norvegicus with 15 samples.

Results

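Dbp, Tef, Nfil3 and Wee1 are output genes of the circadian clock, and they are 4 of the 15739 features measured in rat aorta. They were found by name in the table of array values. They were chosen by their log2 signals on these same arrays: earlier results for vitamin D receptor agonist groups against NX-vehicle named several of them among the genes that changed. Differences from NX-vehicle are therefore given as a description with no test of a member. The comparisons with sham use the same agonist and vehicle arrays, so their p-values are not independent support for the choice.

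The aortas came from Sprague Dawley rats in 5 groups, with 3 arrays in each. Sham rats were untreated and age-matched, so nephrectomy and injection cannot be told apart in a comparison with them. The other 4 groups were rats made uremic by 5/6 nephrectomy (NX), which then received vehicle or 1 of 3 agents. The dose was 0.08 µg/kg of paricalcitol, 0.04 µg/kg of alfacalcidol, and 0.01 µg/kg for the compound with the code name VS-105. The 3 agents activate the vitamin D receptor, a nuclear receptor, and alfacalcidol does so after conversion in the body. Injections were intraperitoneal, 3 times a week for 12 days. Each array held RNA of 2 aortas of 1 group, pooled at random, and 3 pools a group were taken. The p-values therefore set a difference of group means against the spread between pools, not between single rats. The sources used here give neither the age of the rats nor the time of day at which tissue was taken.

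In mammals the proteins CLOCK and BMAL1 bind E-boxes in DNA and switch on genes that include their own repressors, which makes a daily cycle. Dbp and Tef are PAR bZIP transcription factors that E-boxes drive and that activate other genes through a second element, the D-box. Nfil3, also called E4BP4, binds the same D-boxes and represses from them, and in mouse it peaks when Dbp is low. Wee1 is a kinase that holds CDK1 inactive before mitosis, and in mouse liver its gene is switched on through E-boxes. Bmal1 itself is controlled through ROR elements, where ROR nuclear receptors activate and REV-ERB receptors repress.

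The elements of this circuit can be read in promoter sequence, and 4 stretches are shown because each holds an element named above in a member or in a clock gene close to the members in these data. They come from the RefSeq promoter table of build GRCr8, which spans 250 bases before to 50 bases after a gene's start, and read 5′ to 3′ on the gene's strand. Capitals mark the E-box CACGTG in Tef (chr7:115206602-115206681, plus strand) and Ciart (chr2:186112257-186112356, minus strand), the D-box TTATGTAA in Per2 (chr9:99497154-99497213, minus strand) and the ROR element TAGGTCA in Bmal1 (chr1:176766278-176766327, plus strand).
Tef: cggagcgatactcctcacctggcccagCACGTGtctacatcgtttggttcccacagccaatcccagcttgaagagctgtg
Ciart: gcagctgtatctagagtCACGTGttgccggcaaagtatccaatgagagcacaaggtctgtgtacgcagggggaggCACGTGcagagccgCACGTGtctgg
Per2: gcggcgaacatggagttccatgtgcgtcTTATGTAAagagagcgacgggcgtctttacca
Bmal1: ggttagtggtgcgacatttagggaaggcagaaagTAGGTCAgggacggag

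Of the 4 output genes, Dbp, Tef and Nfil3 had an entry in the promoter table (3 of 4). The Tef E-box began 198 bases before the start. That start lies inside the annotated span of Tef (chromosome 7, 115197180 to 115221930). The Ciart promoter held 3 E-boxes, which began 93, 35 and 21 bases before its start. Over 33469 promoters, searched on both strands, CACGTG occurred in 6.42%, the D-box in 1.01% (TTATGTAA, or its variant TTACGTAA) and TAGGTCA in 2.63%. The windows of Dbp (gene on chromosome 1, 105312256 to 105317205) and Nfil3 (chromosome 17, 12432376 to 12447605) held none of these letters, nor the variant E-box CACGTT, nor a vitamin D direct repeat, a pair of half-sites set 3 bases apart on 1 strand, where a half-site is AGGTCA, its first variant GGTTCA or its second variant AGTTCA. The last of these occurred in 0.0777% of promoters, and CACGTT in 4.83%. Other clock genes were searched too. Per2 held no CACGTG, but CACGTT began 62 bases before its start. Of the Nr1d1 entries, 1 held CACGTG (191 bases before) and 1 held CACGTT (174 bases before). The Nr1d2 window held none of the elements searched. Wee1 lies on chromosome 1 at 173605609 to 173632450. A match is a description of the letters and not of binding.

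Values are log2 signals as deposited, 1 row per gene, so that a step of 1 is a doubling. Array medians lay between 2.33 and 2.64. Smooth muscle markers had means of 6.28 to 7.30 on each of the 15 arrays, which fits the aorta label. Transcripts of other tissues stood out on some arrays. In NX-vehicle, 8 intestinal epithelium genes had a mean of -0.67 (array 2) and 2.45 (array 3), while the remaining 13 arrays ran from -5.25 to -2.17. In NX-VS-105, array 1 had a mean of 3.88 for 9 skeletal muscle genes, with -0.74 to 0.50 elsewhere. The mean of 6 white adipocyte genes ran from 3.91 to 6.83 over the 15 arrays. It was highest on NX-vehicle array 1, beside 4.11 and 4.19 on arrays 2 and 3 of that group. In tissue RNA, fewer cells of a type and less RNA per cell cannot be told apart.

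Dbp, a PAR bZIP activator with a strong daily swing in many tissues, was lowest in sham. It read 3.90, 5.15 and 4.71 on the sham arrays and 6.53, 5.93 and 5.12 on the NX-vehicle arrays. Array 3 of NX-vehicle lay below the highest sham array, so those groups overlapped. Dbp read 6.61, 6.92 and 6.42 with paricalcitol, 8.08, 8.64 and 8.19 with alfacalcidol, and 6.59, 8.23 and 7.92 with VS-105. Array 1 of NX-VS-105, the one with skeletal muscle transcripts, stood well below the other arrays of its group and inside the paricalcitol range. Every array of the 3 agonist groups was above every sham array. Of all features, 32% with paricalcitol, 32.3% with alfacalcidol and 36.9% with VS-105 did not overlap sham, in either direction.

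**Figure D1:**
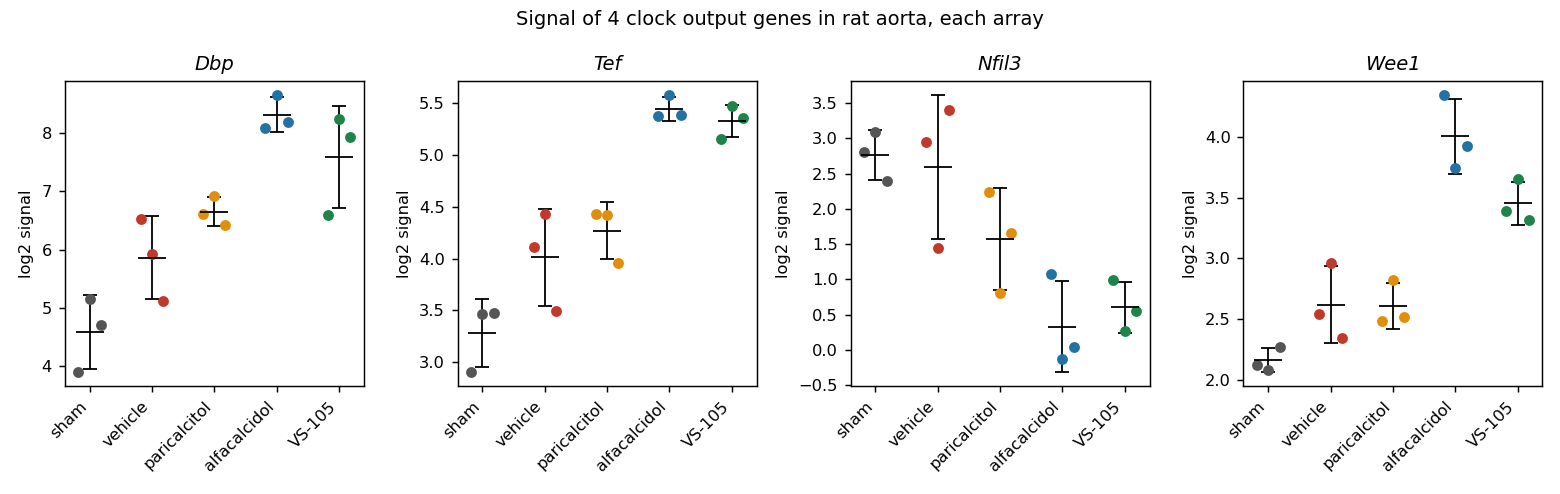
Log2 signal of Dbp, Tef, Nfil3 and Wee1 on each of 15 arrays (points), with the mean and SD of each group of 3 (bars). The 4 NX groups are named by what the rats received. Dbp rises from a mean of 4.59 in sham to 8.30 with alfacalcidol, and Nfil3 runs the other way, from 2.76 to 0.33.

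The group means of Dbp were 4.59 ± 0.63 in sham, 5.86 ± 0.71 with vehicle, 6.65 ± 0.25 with paricalcitol, 7.58 ± 0.87 with VS-105 and 8.30 ± 0.30 with alfacalcidol (log2, mean ± SD, n = 3 each). Each group overlapped the next in this order. Against sham, Dbp rose by 3.72 ± 0.45 (log2 difference ± SE), or 13.2-fold, with alfacalcidol (limma adjusted p = 0.00274). It rose by 2.99 ± 0.45, or 7.95-fold, with VS-105 (limma adjusted p = 0.00398). With paricalcitol it rose by 2.06 ± 0.45, or 4.18-fold (limma adjusted p = 0.0286). That call was lost when sham array 1 or 2 or NX-paricalcitol array 2 or 3 was left out, with limma adjusted p up to 0.142. The NX-vehicle difference from sham was 1.27 ± 0.45, which did not pass (limma adjusted p = 0.480). The authors' deposited table with unadjusted p-values keeps 89 features whose NX-vehicle difference from sham had a p of at most 0.0102 and a fold of at least 1.99. In the authors' deposited table Dbp has p = 1.19e-07 for alfacalcidol and 0.00723 for NX-vehicle, and the other 3 genes are not on that list.

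Tef, the relative of Dbp that binds the same D-boxes, followed it closely with a smaller range. It read 2.90, 3.46 and 3.48 in sham, and 4.11, 4.43 and 3.50 with vehicle. The lowest NX-vehicle array lay only 0.02 above the highest sham array, and 10.6% of all features did not overlap in that comparison. Tef read 4.43, 4.42 and 3.95 with paricalcitol, 5.38, 5.58 and 5.39 with alfacalcidol, and 5.16, 5.47 and 5.36 with VS-105. Arrays of the last pair of groups overlapped each other, and all 6 lay above every sham and vehicle array. Of all features, 23.5% with alfacalcidol and 24.1% with VS-105 did not overlap vehicle. The shares of all features that did not overlap sham were 32.3% with alfacalcidol and 36.9% with VS-105.

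The means of Tef were 3.28 ± 0.33 in sham, 4.01 ± 0.47 with vehicle, 4.27 ± 0.27 with paricalcitol, 5.33 ± 0.16 with VS-105 and 5.45 ± 0.11 with alfacalcidol (log2, mean ± SD, n = 3 each). Paricalcitol arrays overlapped vehicle arrays. Against sham, Tef rose by 2.17 ± 0.23, or 4.50-fold, with alfacalcidol (limma adjusted p = 0.000980). It rose by 2.05 ± 0.23, or 4.14-fold, with VS-105 (limma adjusted p = 0.00140). The rise with paricalcitol was 0.99 ± 0.23, or 1.98-fold (limma adjusted p = 0.0328), and it no longer passed without sham array 1 or 2, without any 1 of the 3 paricalcitol arrays, or in a fit of those 2 groups alone (limma adjusted p = 0.0806). The difference between NX-vehicle and sham was 0.73 ± 0.23 (limma adjusted p = 0.457).

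Nfil3, the D-box repressor, ran opposite to both activators. It read 2.81, 3.09 and 2.39 in sham and spread widely with vehicle, at 2.94, 1.45 and 3.40. The lowest and the highest of these 3 arrays, numbers 2 and 3, were those with intestinal transcripts. Nfil3 read 2.24, 0.81 and 1.66 with paricalcitol, 1.07, -0.13 and 0.04 with alfacalcidol, and 0.99, 0.27 and 0.56 with VS-105. Each of these 9 arrays was below every sham array, and the alfacalcidol and VS-105 arrays were also below every vehicle array. Of all features, 32% with paricalcitol, 32.3% with alfacalcidol and 36.9% with VS-105 did not overlap sham. The shares that did not overlap vehicle were 23.5% with alfacalcidol and 24.1% with VS-105.

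The means of Nfil3 were 2.76 ± 0.35 in sham, 2.59 ± 1.02 with vehicle, 1.57 ± 0.72 with paricalcitol, 0.61 ± 0.36 with VS-105 and 0.33 ± 0.65 with alfacalcidol (log2, mean ± SD, n = 3 each). Neighbours in this order overlapped throughout. Against sham, Nfil3 fell by 2.44 ± 0.49 on the log2 scale with alfacalcidol (limma adjusted p = 0.0338) and by 2.16 ± 0.49 with VS-105 (limma adjusted p = 0.0164). With 1 array left out at a time, the difference stayed between -2.81 and -2.21 with alfacalcidol and between -2.35 and -1.99 with VS-105. Neither call held in every such fit. The alfacalcidol call was lost without sham array 1, 2 or 3 or without NX-alfacalcidol array 1 or 3, with limma adjusted p up to 0.139. The VS-105 call was lost without sham array 2 (limma adjusted p = 0.0502) or NX-VS-105 array 3 (limma adjusted p = 0.0568). With paricalcitol the difference was -1.20 ± 0.49 (limma adjusted p = 0.129), and with vehicle -0.17 ± 0.49 (limma adjusted p = 0.929).

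Wee1, the CDK1-inhibiting kinase, had the narrowest spread in sham, at 2.13, 2.09 and 2.27. It read 2.54, 2.97 and 2.35 with vehicle and 2.49, 2.82 and 2.52 with paricalcitol, which overlapped each other and lay just above sham. It read 4.34, 3.74 and 3.93 with alfacalcidol, and 3.39, 3.65 and 3.31 with VS-105. The alfacalcidol and VS-105 arrays lay above all sham and vehicle arrays. Of all features, 23.5% with alfacalcidol and 24.1% with VS-105 did not overlap vehicle. The shares of all features that did not overlap sham were 10.6% with vehicle, 32% with paricalcitol, 32.3% with alfacalcidol and 36.9% with VS-105.

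The means of Wee1 were 2.16 ± 0.10 in sham, 2.61 ± 0.19 with paricalcitol, 2.62 ± 0.32 with vehicle, 3.45 ± 0.18 with VS-105 and 4.00 ± 0.31 with alfacalcidol (log2, mean ± SD, n = 3 each). Against sham, Wee1 rose by 1.84 ± 0.19, or 3.58-fold, with alfacalcidol (limma adjusted p = 0.000718). It rose by 1.29 ± 0.19, or 2.45-fold, with VS-105 (limma adjusted p = 0.00379). The differences for paricalcitol and for vehicle were of near-equal size, 0.45 ± 0.19 (limma adjusted p = 0.138) and 0.46 ± 0.19 (limma adjusted p = 0.531).

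**Figure D2:**
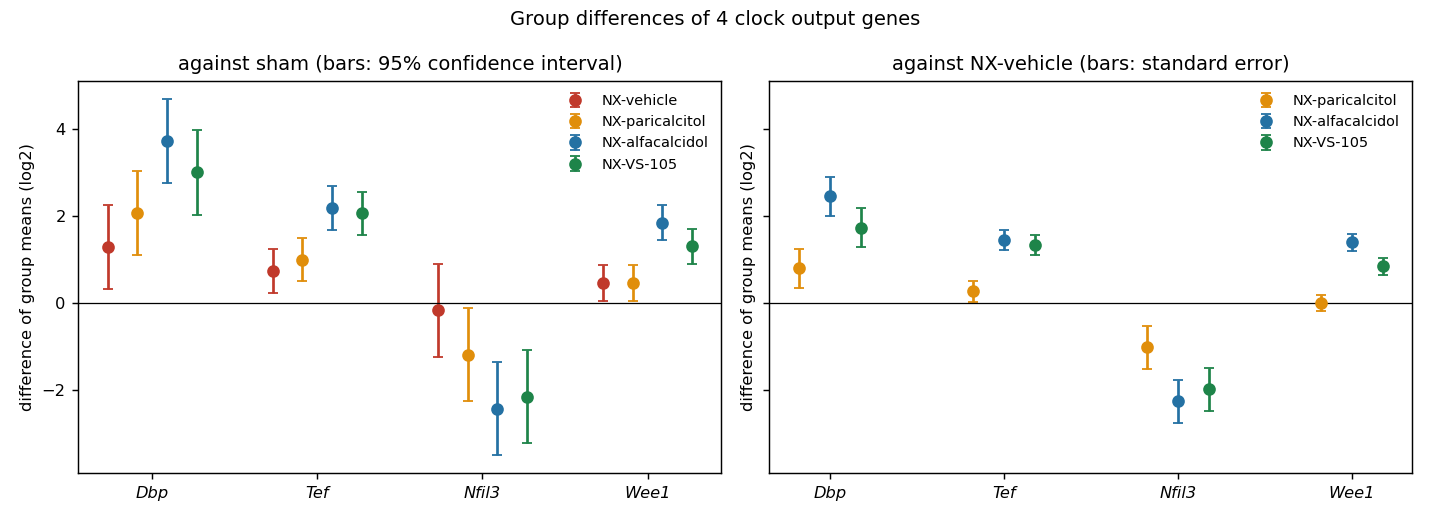
Differences of group means (log2) for the 4 genes, against sham on the left with 95% confidence intervals and against NX-vehicle on the right with standard errors, by NX group. Alfacalcidol and VS-105 have positive differences for Dbp, Tef and Wee1 and negative ones for Nfil3 in both panels.

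Set against the whole table, 4 of 4 genes passed an adjusted p of 0.05 for alfacalcidol against sham, where 1.75% of the 15739 features did, and 4 of 4 passed for VS-105 against sham, where 15.9% did. In both, 3 genes were higher and Nfil3 was lower. Both counts were 3 or 4 with any 1 array left out. Without the 3 arrays that carried other tissue, the VS-105 differences from sham were 3.49 for Dbp, 2.13 for Tef, -2.35 for Nfil3 and 1.32 for Wee1. None of those 3 arrays is a sham or alfacalcidol array, so the alfacalcidol differences could not change. For paricalcitol 2 of 4 passed, both higher, beside 6.98% of features. For NX-vehicle against sham 0 of 4 passed, beside 0%, and at an unadjusted p under 0.05 there were 1423 features, Dbp, Tef and Wee1 among them. The 4 comparisons share the sham arrays, so they are not independent of each other. The calls of Dbp, Tef and Wee1 for alfacalcidol and VS-105 against sham held in every fit that left out 1 array.

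Against NX-vehicle, Dbp differed by 0.79 ± 0.45 with paricalcitol, 2.44 ± 0.45 with alfacalcidol and 1.72 ± 0.45 with VS-105 (log2 ± SE). Tef differed by 0.26 ± 0.23, 1.44 ± 0.23 and 1.32 ± 0.23 in the same order. Nfil3 differed by -1.02 ± 0.49, -2.27 ± 0.49 and -1.99 ± 0.49. Wee1 differed by -0.01 ± 0.19, 1.38 ± 0.19 and 0.83 ± 0.19. Alfacalcidol and VS-105 arrays were on one side of all vehicle arrays for each gene, as they were for 23.5% and 24.1% of all features. Paricalcitol arrays overlapped vehicle arrays for each gene, and 16.7% of features did not overlap. Same-numbered vehicle and paricalcitol arrays deviated together (r = 0.62, 0.52 and 0.26 over all features). Within these pairs Dbp differed by 0.08, 0.99 and 1.30 and Nfil3 by -0.70, -0.64 and -1.74, each with 1 sign. Tef differed by 0.32, -0.003 and 0.46 and Wee1 by -0.06, -0.14 and 0.17. Over all features, 0% passed the test against NX-vehicle with paricalcitol (2325 at an unadjusted p under 0.05 by limma), 0.0445% with alfacalcidol and 4.55% with VS-105. Without NX-vehicle arrays 2 and 3 and NX-VS-105 array 1, NX-vehicle keeps 1 array, assumed to vary like the other groups, and the Dbp difference from it was 1.78 with alfacalcidol and 0.12 with paricalcitol. The doses of the 3 agents differ, so their values stand side by side, and no difference between agents was tested.

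Across the 15 arrays Dbp, Tef and Wee1 moved together, and Nfil3 moved opposite to them. The Pearson correlation of log2 signals was 0.95 between Dbp and Tef, 0.92 between Tef and Wee1, and 0.87 between Dbp and Wee1. Nfil3 had correlations of -0.85 with Dbp, -0.89 with Tef and -0.84 with Wee1. These arrays share groups, platform and scaling, so each value includes the differences between groups. After the group means were taken off, the correlation was 0.73 for Dbp with Tef, 0.46 for Tef with Wee1, 0.17 for Dbp with Wee1, and -0.37, -0.57 and -0.42 for Nfil3 with Dbp, Tef and Wee1.

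**Figure D3:**
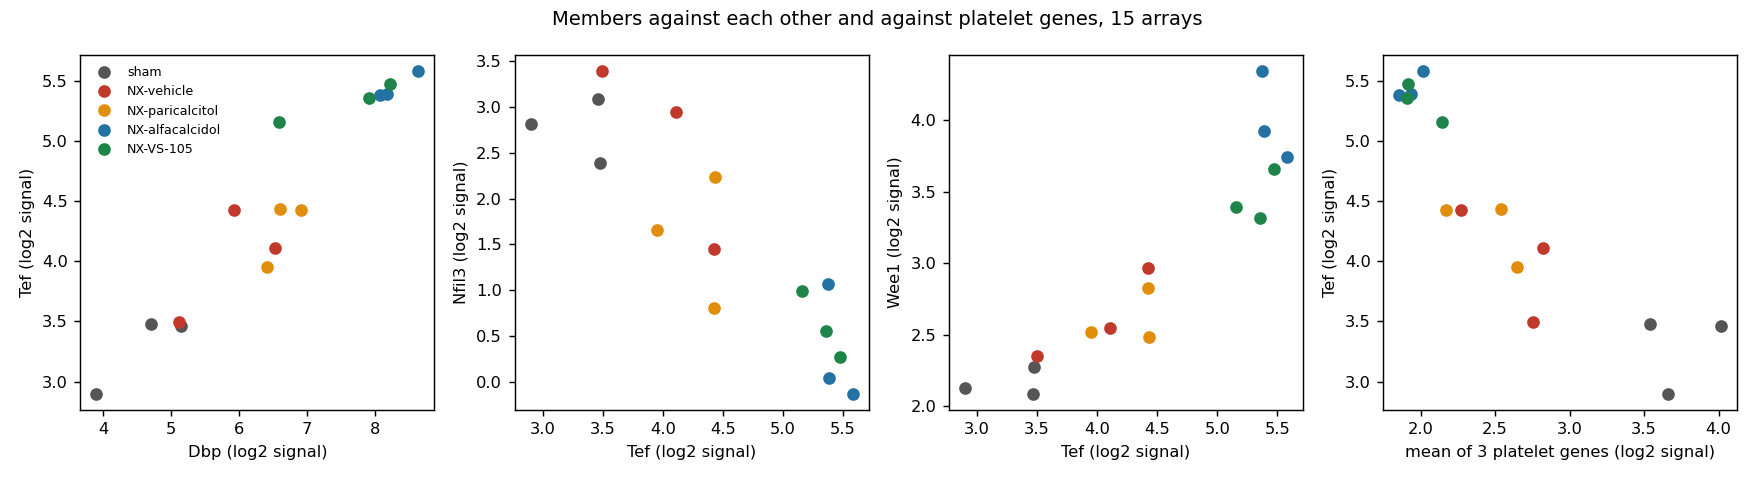
Log2 signals on 15 arrays, coloured by group: Tef against Dbp, Nfil3 against Tef, Wee1 against Tef, and Tef against the mean of 3 platelet genes. Tef rises with Dbp (r = 0.95) and falls with Nfil3 (r = -0.89), and the sham arrays have the highest platelet means, 3.54 to 4.02.

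The features most like Dbp, Tef and Wee1 over the 15 arrays included clock genes. For Dbp they were Tef (r = 0.95), Nr1d2, the nuclear receptor REV-ERB beta (0.95), and Ciart, a repressor of CLOCK and BMAL1 (0.94). The most opposite to Dbp were Bmal1 (-0.90) and Pf4, a platelet chemokine (-0.90). For Tef they were Dbp, Rhobtb1 (0.95) and Ciart (0.95), with Treml1, a platelet receptor (-0.91), and Pf4 (-0.91) most opposite. For Wee1 they were Per2, a core clock repressor (0.97), Herpud1, of endoplasmic reticulum protein breakdown (0.94), and Klf9, a clock- and glucocorticoid-responsive factor (0.93). The most opposite to Wee1 were Pf4 (-0.91) and then Bmal1 (-0.91). After group means were taken off, Wee1 kept a correlation of 0.80 with Per2 and -0.81 with Pf4, whereas that with Bmal1 went to 0.17. For Nfil3 the nearest were Ccnjl (0.89), the platelet chemokine Pf4 (0.88) and Npy, the neuropeptide of sympathetic nerves (0.87). The most opposite to Nfil3 were Pik3ip1, an inhibitor of PI3 kinase (-0.95), and Herpud1 (-0.93). Of the core clock genes measured, Per2 (-0.90) and Ciart (-0.89) were the most opposite to Nfil3. After group means were taken off, these 2 values were -0.68 and -0.47.

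Of a list of 22 core clock genes, 19 were measured. Against sham, 6 passed higher and 3 lower with alfacalcidol, 5 higher and 4 lower with VS-105, 5 higher and 0 lower with paricalcitol, and 0 either way with vehicle. Over all features 1.75%, 15.9%, 6.98% and 0% passed in these comparisons. The median change of the 19 was 0.38, 0.34, 0.28 and 0.02 in that order, beside 0.14, 0.06, 0.10 and -0.04 over all features. With alfacalcidol array 1 or 3 left out, 5 of the 19 passed for that agent. For paricalcitol the count was 0 without sham array 2 or NX-paricalcitol array 2, and 1 without NX-paricalcitol array 3.

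The activators of the clock fell with alfacalcidol and VS-105, where Dbp and Tef rose. Bmal1 was at 2.37 ± 0.42 in sham, 1.95 ± 0.64 with vehicle, 1.97 ± 0.24 with paricalcitol, -0.65 ± 0.28 with alfacalcidol and 0.20 ± 0.31 with VS-105 (log2, mean ± SD, n = 3 each). Its change against sham was -3.02 with alfacalcidol (limma adjusted p = 0.000718) and -2.17 with VS-105 (limma adjusted p = 0.00303). Clock and Npas2, partners of Bmal1, fell by 0.97 and 1.22 with alfacalcidol and by 1.25 and 1.08 with VS-105. Their means with vehicle were 0.25 and 3.20, beside 0.78 and 3.65 in sham, differences that did not pass.

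Several clock repressors rose with the PAR bZIP genes. Whether promoter elements had a part in this was not tested. Ciart, whose promoter holds the 3 E-boxes shown above, was at 1.67 ± 0.40 with alfacalcidol and between -3.66 and -2.75 on the sham arrays, under the highest array minimum of -2.71. With lower values raised to that floor, it rose by at least 4.39 with alfacalcidol (limma adjusted p = 0.000702, without the floor), 3.46 with VS-105 and 1.63 with paricalcitol. Per2, whose promoter holds the D-box shown, rose by 2.58, 1.95 and 1.15 in these groups. Nr1d1, REV-ERB alpha, rose by 2.07, 2.24 and 1.69. Bhlhe40, an E-box binding repressor, rose by 1.72, 1.81 and 1.54. None of these genes passed with vehicle, but their vehicle means also lay above sham. Nr1d1 was at 1.37 in sham and 2.59 with vehicle, Bhlhe40 at 0.59 and 1.62, and Per2 at 1.06 and 1.85. Ciart with vehicle was 0.85 above sham with the same floor. Other clock repressors, Per1, Per3, Cry1 and Cry2, gave no call. Their differences from sham lay between -0.63 and 0.43 over the 4 NX groups.

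**Figure D4:**
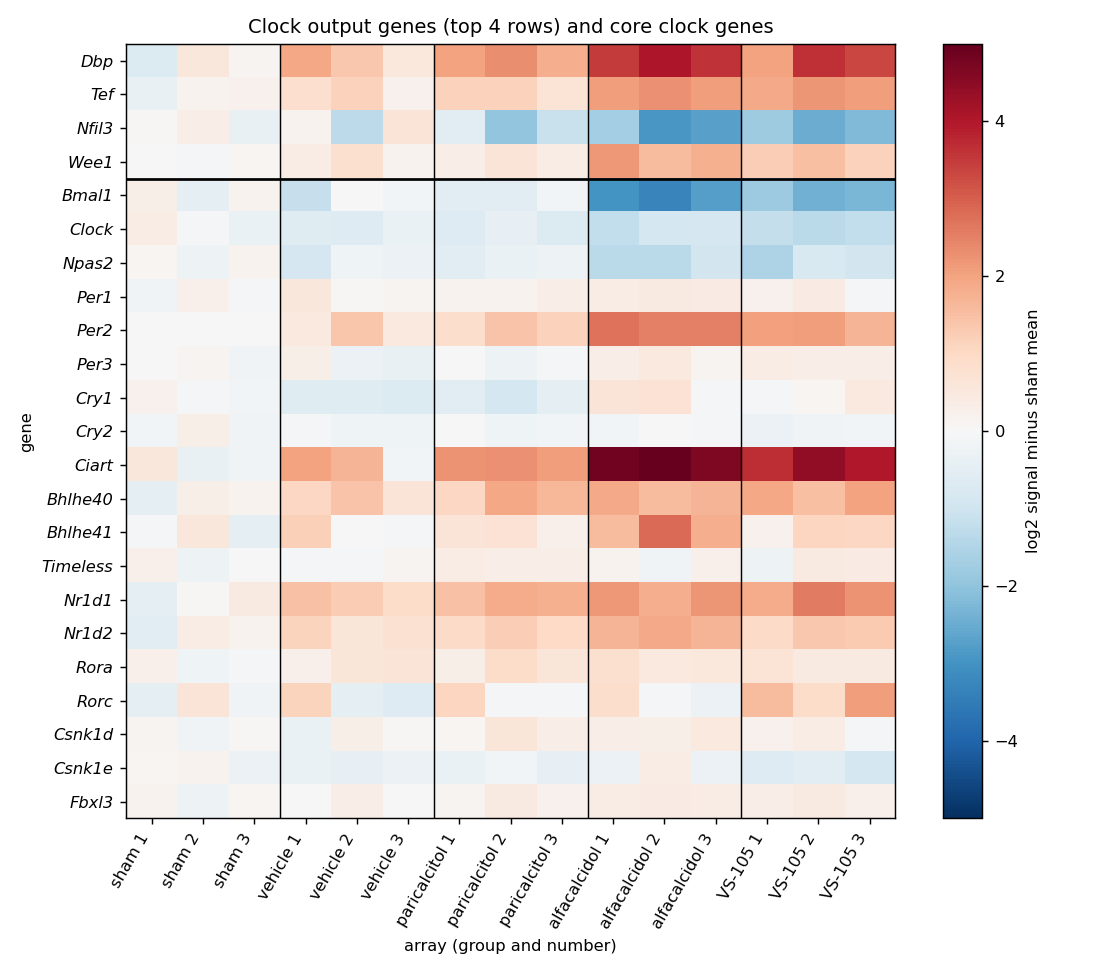
Log2 signal minus the sham mean of each gene, for the 4 output genes (top 4 rows) and 19 core clock genes, on each of the 15 arrays. Red is above and blue below the sham mean. Ciart, Dbp, Per2 and Nr1d1 are red and Bmal1, Clock and Nfil3 blue on the alfacalcidol and VS-105 arrays.

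A second list held 20 other genes under clock control, of which 18 were measured. With alfacalcidol against sham 4 passed higher and 0 lower, with VS-105 5 higher and 1 lower, with paricalcitol 2 higher, and with vehicle 0. Beside the 1.75%, 15.9%, 6.98% and 0% of all features that passed, 2 of 18 with paricalcitol is near the share over all features. Klf9 rose by 1.38 with alfacalcidol, 1.02 with VS-105 and 0.72 with paricalcitol. Klf15, a related factor, rose by 1.67 with alfacalcidol and 1.64 with VS-105, and Tspan4, a tetraspanin, by 0.66 and 0.67. Gys2, the liver form of glycogen synthase, differed by 0.45 (limma adjusted p = 0.786) and 1.23 (limma adjusted p = 0.360), and did not pass.

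Wee1 acts on the mitotic kinase Cdk1, and 11 of 14 genes of that step were measured. Against sham, 5 passed higher with paricalcitol, where Wee1 did not pass, 1 with alfacalcidol, 6 with VS-105 and 0 with vehicle. Over all features 6.98%, 1.75%, 15.9% and 0% passed. None of the 11 passed lower in these 4 comparisons. Cdk1 itself rose by 3.48 with paricalcitol, 2.48 with alfacalcidol and 2.67 with VS-105. Its mean was 0.10 in sham and 1.92 with vehicle, a difference that did not pass. Pkmyt1, the other kinase that restrains Cdk1, rose by 1.33 with paricalcitol (limma adjusted p = 0.0224) and differed by 0.72 with alfacalcidol (limma adjusted p = 0.116).

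Markers of other cell types were set beside the 4 genes. Of 5 platelet markers, 3 were measured (Gp1bb, Gp9 and Pf4). Their mean log2 signal was 3.54 to 4.02 on sham arrays, 2.27 to 2.82 with vehicle, 2.17 to 2.65 with paricalcitol, 1.86 to 2.02 with alfacalcidol and 1.91 to 2.15 with VS-105, so that it was lowest where Dbp, Tef and Wee1 were highest. All 3 passed lower against sham with each agonist, beside 6.98% of all features with paricalcitol, 1.75% with alfacalcidol and 15.9% with VS-105. With vehicle 0 passed, beside 0% of all features. Their median change against sham was -1.14 with vehicle, -1.24 with paricalcitol, -1.34 with alfacalcidol and -1.50 with VS-105. The correlation of the platelet mean with Dbp was -0.87 over 15 arrays and -0.08 after group means were taken off. The pairs of values were -0.90 and -0.41 for Tef, 0.82 and 0.70 for Nfil3, and -0.85 and -0.71 for Wee1. The mean of 4 erythroid markers (of 6) was 6.27 to 6.81 on sham arrays, 5.79 to 5.84 with vehicle, 4.26 to 6.09 with paricalcitol, 4.06 to 6.71 with alfacalcidol and 4.58 to 5.24 with VS-105. It correlated with Dbp, Tef, Nfil3 and Wee1 at -0.55, -0.52, 0.58 and -0.52, and at 0.01, 0.13, 0.26 and -0.41 after group means were taken off. The part of blood cells in the levels of the 4 genes was not tested. Of 8 T and NK cell markers 3 were measured, and their mean correlated with Nfil3 at 0.66 and with Wee1 at -0.66. After group means were taken off, these values were 0.54 and -0.29. In the gene order Dbp, Tef, Nfil3 and Wee1, endothelium markers (7 of 8) had correlations of -0.34, -0.25, 0.53 and -0.38. Fibroblast markers (7 of 7) had -0.46, -0.49, 0.39 and -0.52. With group means taken off, the endothelium values were 0.09, 0.20, 0.51 and -0.15. The fibroblast values were then 0.40, 0.49, -0.65 and 0.24, each with its sign turned. Smooth muscle markers had correlations between -0.37 and 0.34 with the 4 genes, and skeletal muscle markers between -0.18 and 0.24. Within groups these ran from -0.59 to 0.25 and from -0.51 to 0.11. Macrophage markers ran from -0.09 to 0.08 over 15 arrays and from -0.59 to 0.09 within groups. The ranges were -0.35 to 0.42 and -0.57 to 0.23 for intestinal markers. For white adipocyte markers they were -0.004 to 0.18 and -0.20 to 0.41, and for brown adipocyte markers -0.14 to 0.32 and -0.33 to 0.66.

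Glucocorticoids reset clocks in peripheral tissue, and 12 of 12 genes of a glucocorticoid-induced list were measured. Against sham 2 passed higher with alfacalcidol, 1 with VS-105, 1 with paricalcitol and 0 with vehicle, and 0 lower. Beside 1.75%, 15.9%, 6.98% and 0% of all features, the counts for VS-105 and paricalcitol do not stand out. Of this list Klf9 (r = -0.85) and Fkbp5, a co-chaperone of the glucocorticoid receptor (-0.67), were the most opposite to Nfil3. After group means were taken off, these were -0.32 and -0.19. Of 15 immediate early genes, which respond fast to handling and stimulation of tissue, 0 passed higher and 1 lower, with VS-105, against sham. Their median change against sham was 0.92 with vehicle, 0.01 with paricalcitol, 0.33 with alfacalcidol and -0.25 with VS-105. Over all features it was -0.04, 0.10, 0.14 and 0.06. Of these genes Klf4 (0.54) and Fos (0.53) were the most like Nfil3. Their values after group means were taken off were -0.01 and 0.46.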

How the data were processed

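Aortic RNA was labelled with Cy3 and hybridised to Agilent arrays, per the labels' protocols. The deposited values are on a log2 scale, 1 row per gene symbol or other identifier, with 15739 rows. Partek 6.0 was used, per the submitters' processing notes, and the sources used here do not state how background was corrected or arrays were scaled. The authors' deposited comparison sheets give unadjusted p-values against sham and a signed fold score, a ratio or minus its inverse. Differences of group means matched 356 of these scores within 8.69e-06, which settles the log2 scale.

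Of the names, 9187 matched a current rat symbol and 1555 a synonym, so Bmal1 stands for Arntl. All value columns matched a sample label (0 unmapped). Group means of all 15 arrays were fitted with limma 3.58.1 (lmFit and eBayes) in R 4.3.3, with 10 residual degrees of freedom. Tests were two-sided, with Benjamini-Hochberg adjustment over all features of a comparison and a threshold of 0.05. The number of arrays limits the precision.

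The 4 genes, the gene lists and the marker lists were chosen with earlier results of these data known. From the clock-controlled list, genes were named by smallest p for NX-vehicle against sham or largest mean change with alfacalcidol and VS-105. That rule also picked Cdkn1a, Rgs16 and Cys1, whose changes are not given here. All core clock and Wee1 partner genes could be named. The most alike features were the 3 highest and 2 lowest by correlation. Alternatives were array medians subtracted, a filter on dim features, fits of 2 groups alone, a replicate block, other-tissue arrays left out, and each array left out. Of the 7 comparisons, only paricalcitol against vehicle had all 3 same-numbered correlations over 0.1 (0.62, 0.52 and 0.26), and this pairing comes from the data, not from the labels.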

Additional observations from a re-analysis of the deposited data

How the results depend on the processing

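With every alternative setting that gave a value, the rises of Dbp, Tef and Wee1 with alfacalcidol and VS-105 against sham kept their direction. They also kept their call in each setting that left more than 1 array in every group. Leaving out the arrays with other tissue removed no sham or alfacalcidol array, so the alfacalcidol differences could not change there. Features above the median mean signal (7869) leave out Nfil3, so it has no value there. Without NX-vehicle arrays 2 and 3 and NX-VS-105 array 1, Nfil3 in NX-vehicle against sham turned to 0.18 and Wee1 in paricalcitol against vehicle to 0.065, while Dbp against vehicle was 0.12 with paricalcitol and 1.78 with alfacalcidol. The vehicle array kept there, number 1, had the highest white adipocyte mean (6.83). In fits of 2 groups alone Tef with paricalcitol stayed at 0.99 but lost its call (limma adjusted p = 0.0806). Causes were not tested, other than that fewer arrays or features entered these fits.

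Counts of features past the threshold depended on the setting. With array medians subtracted, 14 passed for paricalcitol and 152 for alfacalcidol against vehicle. Medians subtracted also moved the share of higher calls from 79% to 54.9% for paricalcitol, 66.9% to 40.9% for alfacalcidol and 49.6% to 37.3% for VS-105 against sham, and from 57.1% to 9.21% for alfacalcidol and 52.8% to 29% for VS-105 against vehicle. With dim features left out, counts against sham were 2 for vehicle, 621 for paricalcitol, 109 for alfacalcidol and 1086 for VS-105, and against vehicle 6 for paricalcitol and 13 for alfacalcidol. Fits of 2 groups alone gave 105, 169 and 502 for paricalcitol, alfacalcidol and VS-105 against sham, and 58 and 193 for alfacalcidol and VS-105 against vehicle. A replicate block gave 294 for paricalcitol and 104 for alfacalcidol against sham, 3 for alfacalcidol and 415 for VS-105 against vehicle. With the block, 4 of 4 genes still passed for alfacalcidol and for VS-105 against sham. Over 30 same-numbered pairs the median correlation of deviations was -0.03 and 9 were over 0.1; the paired fit of vehicle and paricalcitol alone gave 0 calls by limma (4923 features had an unadjusted p under 0.05). Leaving out the 3 arrays with other tissue gave 1012 for VS-105 against sham and 0 for alfacalcidol and VS-105 against vehicle, where 1 vehicle array then remains and the other groups give the spread.

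With 1 array left out at a time, feature counts against sham ran from 0 to 2 for vehicle, 0 to 1482 for paricalcitol, 31 to 861 for alfacalcidol and 583 to 2778 for VS-105, and against vehicle from 0 to 22, 0 to 35 and 34 to 1275. Nfil3 in NX-vehicle against sham ran from -0.57 to 0.40, with the sign turned without NX-vehicle array 2. With paricalcitol against sham, Dbp ran from 1.72 to 2.35 and Tef from 0.80 to 1.15. Nfil3 against sham ran from -2.81 to -2.21 with alfacalcidol and from -2.35 to -1.99 with VS-105. Wee1 with paricalcitol against vehicle ran from -0.15 to 0.16, and was above 0 without NX-vehicle array 2 (0.16) or NX-paricalcitol array 1 (0.050) or 3 (0.035).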
